A study of Mus musculus with 9 samples.

Results

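The mitosis and spindle genes are a set of 42 mouse genes that act when a cell divides its chromosomes, and 41 of them were measured here among 19938 genes. A member was taken where a probe set of the array carries that gene's symbol alone, and where a gene had several probe sets the brightest, by its 9-array mean, stood for it. Ccnb1, which codes for cyclin B1, had no such probe set and has no value. Gene expression was profiled on 9 whole-transcript arrays in 3 groups of 3. WT liver is liver of C57Bl/6 mice with both Notch1 alleles flanked by loxP sites (Notch1 lox/lox) and no Cre. KO liver is liver of Notch1 lox/lox mice that also carried MxCre, a Cre recombinase switched on by the interferon response. To trigger that response, both liver groups had injections of poly(I:C), which mimics viral RNA, at 300 µg each. They were given on days 0, 3 and 6, beginning when the mice were 4 weeks old, and age at collection is unstated. The signal-peptide exon of Notch1 is the part deleted. AS line stands for cultured angiosarcoma (vessel-lining cell tumour) cells, which outgrew other cells in long-term cultures of endothelium isolated from tumour-bearing KO livers. Its 3 arrays, called lines 1, 2 and 3 here, are labelled biological replicates, and the labels do not say whether each is a separately derived line. MxCre acts in several cell types of the liver. Since only KO mice carried it, effects of Cre and of the lost Notch1 cannot be told apart. Values are on the log2 scale, made comparable between arrays by the authors' robust multi-array average, and with 3 arrays a group the array number limits precision.

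A dividing cell builds a spindle of microtubules, attaches each chromosome to it at the kinetochore, and separates the copies once a checkpoint finds all of them attached. Cyclin A and B with the kinase CDK1 start this process, and the anaphase-promoting complex ends it by marking cyclins for destruction. Most genes of the set are transcribed only late in the cell cycle. In resting cells they are held silent by the DREAM complex through a promoter element, the cell cycle genes homology region, and in dividing cells the factors B-Myb and FoxM1 act through the same element, often with NF-Y bound to CCAAT boxes nearby. Adult liver has few dividing cells, so the summed level of these genes is widely used as a measure of proliferation.

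The shared promoter elements were visible in the sequences of the members. RefSeq promoter windows of 300 bases (250 before and 50 after the transcript start, build GRCm38.p6) were available for 36 of the 42 genes, in 39 windows. The letters TTTGAA, on either strand, were in 31 of these 39 windows (79.5%), against 17.9% of all 32851 windows. They lay within 50 bases of the start in 74.4% of member windows, against 4.9% of all. CCAAT, on either strand, was in 74.4% against 37.4%, and both motifs together in 64.1% against 7.0%. An E2F site (TTTGGCGC, TTTCCCGC, TTTGCCGC or TTTCGCGC, either strand) was in 5.1% against 2.3%. No test was made of these shares. The windows of Nusap1, Birc5, Nuf2 and Mad2l1 held neither TTTGAA nor CCAAT. A match is a description of the letters and not of binding.

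The first 5 members of the list with both motifs are shown because they carry the pattern common to the set, and Cenpa is added because its promoter has both motifs while its level did not follow the others. Each stretch runs 5′ to 3′ from 150 bases before to 50 bases after the start, and capitals mark the letters of both main motifs on either strand.
Ccnb2, chr9:70421505-70421704, minus strand: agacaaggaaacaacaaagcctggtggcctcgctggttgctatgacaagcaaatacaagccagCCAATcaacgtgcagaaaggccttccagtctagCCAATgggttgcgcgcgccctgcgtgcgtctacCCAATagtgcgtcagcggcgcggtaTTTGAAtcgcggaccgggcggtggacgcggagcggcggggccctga
Cdk1, chr10:69352863-69353062, minus strand: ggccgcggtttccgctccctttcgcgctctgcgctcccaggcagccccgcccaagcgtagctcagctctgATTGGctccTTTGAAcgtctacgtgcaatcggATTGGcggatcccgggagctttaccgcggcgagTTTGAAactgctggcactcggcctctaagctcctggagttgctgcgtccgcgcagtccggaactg
Plk1, chr7:122159285-122159484, plus strand: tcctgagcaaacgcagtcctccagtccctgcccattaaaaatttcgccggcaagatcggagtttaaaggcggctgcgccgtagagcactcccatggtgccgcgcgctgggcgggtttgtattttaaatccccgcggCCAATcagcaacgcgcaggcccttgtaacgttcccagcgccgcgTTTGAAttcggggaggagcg
Bub1b, chr2:118598061-118598260, plus strand: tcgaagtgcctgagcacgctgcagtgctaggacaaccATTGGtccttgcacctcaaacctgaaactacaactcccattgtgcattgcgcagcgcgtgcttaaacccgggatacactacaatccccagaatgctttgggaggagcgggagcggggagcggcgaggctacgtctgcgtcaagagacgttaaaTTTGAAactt
Aurka, chr2:172370521-172370720, minus strand: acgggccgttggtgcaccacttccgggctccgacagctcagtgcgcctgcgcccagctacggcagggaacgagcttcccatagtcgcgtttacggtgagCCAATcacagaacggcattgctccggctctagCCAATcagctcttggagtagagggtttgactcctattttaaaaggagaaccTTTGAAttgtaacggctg
Cenpa, chr5:30666736-30666935, plus strand: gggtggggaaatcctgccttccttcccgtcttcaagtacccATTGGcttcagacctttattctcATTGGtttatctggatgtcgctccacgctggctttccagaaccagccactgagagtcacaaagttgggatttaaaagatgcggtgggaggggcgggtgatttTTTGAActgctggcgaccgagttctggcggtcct
In Ccnb2 and Aurka, CCAAT boxes stood before the start and TTTGAA after it. Cdk1 had 2 copies of TTTGAA between and after inverted CCAAT boxes, and its stretch also held 1 E2F site, left in lower case.

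KO livers were set against WT livers to see what loss of Notch1, a cell-surface receptor for ligands on adjacent cells, does to the organ. Notch1 had values of 11.69, 11.02 and 11.71 in WT livers. KO livers had 7.84, 8.75 and 8.52, lower in every array, as their labels imply. The mitosis and spindle genes were higher in the KO livers as a block. The mean was higher for 40 of 41 members and for 49.8% of all genes, with a median difference of 1.31 log2 units (2.48-fold), against -0.00 over all genes. In the same 40 members the 3 KO values were all above the 3 WT values, which was true of 19.2% of all genes, and Cenpa was the exception. The KO mean was at least 2-fold higher for 34 members (82.9%) and for 0.813% of all genes. Of the 162 genes that reached 2-fold, 34 (21.0%) were members, 28 were among the 155 further cell division genes described below, and 100 were on neither list.

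The 3 KO livers differed more among themselves than the WT livers did. The median SD of a member was 0.14 in the WT livers and 0.61 in the KO livers, while over all genes it was 0.125 and 0.118. Measured from each gene's WT mean, the median member stood at 1.81 in KO replicate 1, at 0.67 in KO replicate 2 and at 1.47 in KO replicate 3. The 3 WT livers lay between -0.03 and 0.07. The order of replicates 1, 3 and 2 from high to low held for 38 of 41 members and for 20.6% of all genes. KO replicate 2 was the lowest of the KO livers for the whole set, since Cenpa, Mad2l1 and Spc25, outside that order, were also lowest there. Even so, 40 members were above all 3 WT livers in KO replicate 2, against 34.5% of all genes. In that array 5 members were at least 2-fold above the WT mean (Anln, Bub1, Ccna2, Plk1 and Top2a), against 1.2% of all genes, while in KO replicate 1 it was 39 members, against 2.24%.

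**Figure D1:**
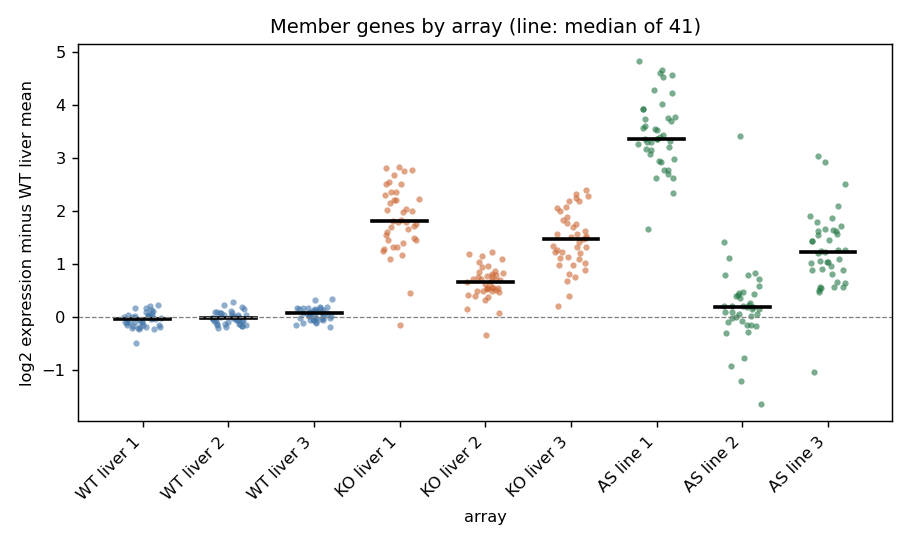
Each point is 1 of the 41 measured member genes in 1 array, as log2 expression minus that gene's mean in the 3 WT livers (vertical axis), and the black line is the median of the members. The medians were 1.81, 0.67 and 1.47 in KO liver replicates 1, 2 and 3, and 3.37, 0.19 and 1.24 in AS lines 1, 2 and 3.

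The test across all genes called none of these differences. In limma over all 19938 genes (3 against 3 arrays), 0 genes of any kind passed an adjusted p of 0.05 (0.0% called), so 0 of 41 members did. An unadjusted p under 0.05 with a higher KO mean was found for 40 members and for 17.3% of all genes. The adjusted p of the members ran from 0.0995 to 0.748, with a median of 0.116. At an adjusted p under 0.10, limma called 2 members higher, Kif23 and Spc25, and 1.58% of all genes. For any 1 gene, an exact permutation test of 3 against 3 arrays cannot go below 0.1. Without KO replicate 2, 38 members were called higher, against 8.38% of all genes, while leaving out any other 1 array called 0 members. KO replicate 2 had the lowest level of this same set among the KO livers, so the calls without it are not independent support. With array weights, 40 members were called higher, against 19.6%. KO replicate 2 then had a weight of 0.315 and WT replicate 1 one of 0.274.

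Among the cyclins and kinases of mitotic entry, all 7 measured genes were higher in every KO array, against 19.2% of all genes. Ccna2, cyclin A2, was at 7.22, 7.38 and 7.49 in the WT livers, and KO livers had 10.13, 8.46 and 9.70. The lowest KO array was still well above the highest WT array. The difference was 2.06 (SE 0.430, adjusted p = 0.104 in limma). Plk1, the polo-like kinase that drives centrosome maturation and cohesin release, was at 6.77, 6.49 and 6.75 in the WT and 9.49, 7.86 and 8.74 in the KO livers, a difference of 2.03 (SE 0.408). Cdk1, the kinase bound by both cyclins, differed by 1.53 (SE 0.408) and Ccnb2, cyclin B2, by 1.51 (SE 0.328). The centrosomal kinases Aurka and Nek2 differed by 0.82 and 1.00. Cdc25c, the phosphatase that activates CDK1, had the smallest difference of this group. It stood at 5.08, 5.19 and 5.07 in the WT and 5.57, 5.19 and 5.51 in the KO livers (difference 0.31, SE 0.115, adjusted p = 0.201 in limma). Its value in KO replicate 2 (5.1935) was barely above that in WT replicate 2 (5.1899).

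The spindle checkpoint genes were also higher in every KO array, against 19.2% of all genes. Bub1, a kinase that recruits checkpoint proteins to kinetochores, was at 5.47, 5.63 and 5.66 in the WT and 8.27, 6.74 and 7.77 in the KO livers (difference 2.01, SE 0.386, adjusted p = 0.102 in limma). Its KO values were spread widely, but the lowest was above all WT values. Bub1b, which codes for the checkpoint inhibitor BubR1, differed by 1.17, and Mad2l1, whose product binds and blocks Cdc20, by 1.08. Cdc20, the activator of the anaphase-promoting complex, and Ube2c, its ubiquitin-conjugating enzyme, differed by 1.04 and 1.12. Ttk, the kinase at the head of the checkpoint, was at 5.19, 5.28 and 5.02 in the WT and 6.26, 5.31 and 5.98 in the KO livers, a difference of 0.69 (SE 0.250).

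At the kinetochore, 5 of 6 genes were higher and 1 was not. Cenpa codes for the histone H3 variant that marks centromeres, and stood at 9.41, 9.10 and 9.17 in the WT and 9.07, 8.89 and 9.44 in the KO livers. The groups overlapped, and the difference was -0.09 (SE 0.164, adjusted p = 0.748 in limma). The other 5 differed by 0.97 to 1.53. They were Cenpe, a kinetochore motor, at 1.53, Spc25 at 1.25, Cenpf at 1.20, Nuf2 at 1.06 and Ndc80 at 0.97. Spc25, Nuf2 and Ndc80 are subunits of the complex that holds the microtubule end. The chromosomal passenger complex, which corrects wrong attachments, gave like values for all 4 subunits. Its kinase Aurkb was at 7.61, 7.63 and 7.87 in the WT and 9.51, 8.41 and 9.33 in the KO livers, a difference of 1.38 (SE 0.299). Cdca8 (borealin), Birc5 (survivin) and Incenp differed by 1.31, 1.15 and 1.07.

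All 8 mitotic kinesins, motor proteins that slide, carry or shorten microtubules, were higher in every KO array, against 19.2% of all genes. Kif11, the motor that pushes spindle poles apart, was at 6.62, 6.69 and 6.61 in the WT and 9.40, 7.58 and 8.92 in the KO livers (difference 2.00, SE 0.460, adjusted p = 0.112 in limma). Kif23, the cytokinesis motor MKLP1, had a smaller difference of 1.25 but a closer spread (SE 0.218), and shared the smallest adjusted p of the set with Spc25 (0.0995 in limma). Kif22, Kif18b, Kif4, Kif20a and Kif15 differed by 1.61, 1.48, 1.43, 1.36 and 1.25, and Kif2c, a microtubule depolymerase, by 0.76.

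The genes of spindle microtubule factors and of cytokinesis had the largest median difference of the 7 role groups, 1.71 over 7 members. Anln codes for anillin, the scaffold of the contractile ring, and had the largest difference of the set. It was at 5.79, 6.23 and 5.99 in the WT and 8.82, 7.24 and 8.26 in the KO livers, a difference of 2.10 (SE 0.406, adjusted p = 0.102 in limma). Prc1, the bundler of the central spindle, differed by 1.97 (SE 0.429), Nusap1 by 1.78, Ect2, the activator of RhoA at the division plane, by 1.71, Cep55 by 1.33 and Aspm by 1.05. Tpx2, which activates Aurora A on the spindle, was at 6.32, 6.71 and 6.50 in the WT and 8.72, 7.29 and 8.35 in the KO livers (difference 1.61, SE 0.375). Top2a, the topoisomerase that untangles chromosomes, was at 6.36, 7.01 and 7.16 in the WT and 9.35, 7.87 and 9.04 in the KO livers (difference 1.91, SE 0.435). Its other probe set gave 1.21. Mki67, the gene of the proliferation antigen Ki-67, differed by 1.61 (SE 0.398) and Cdca3 by 0.88.

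**Figure D2:**
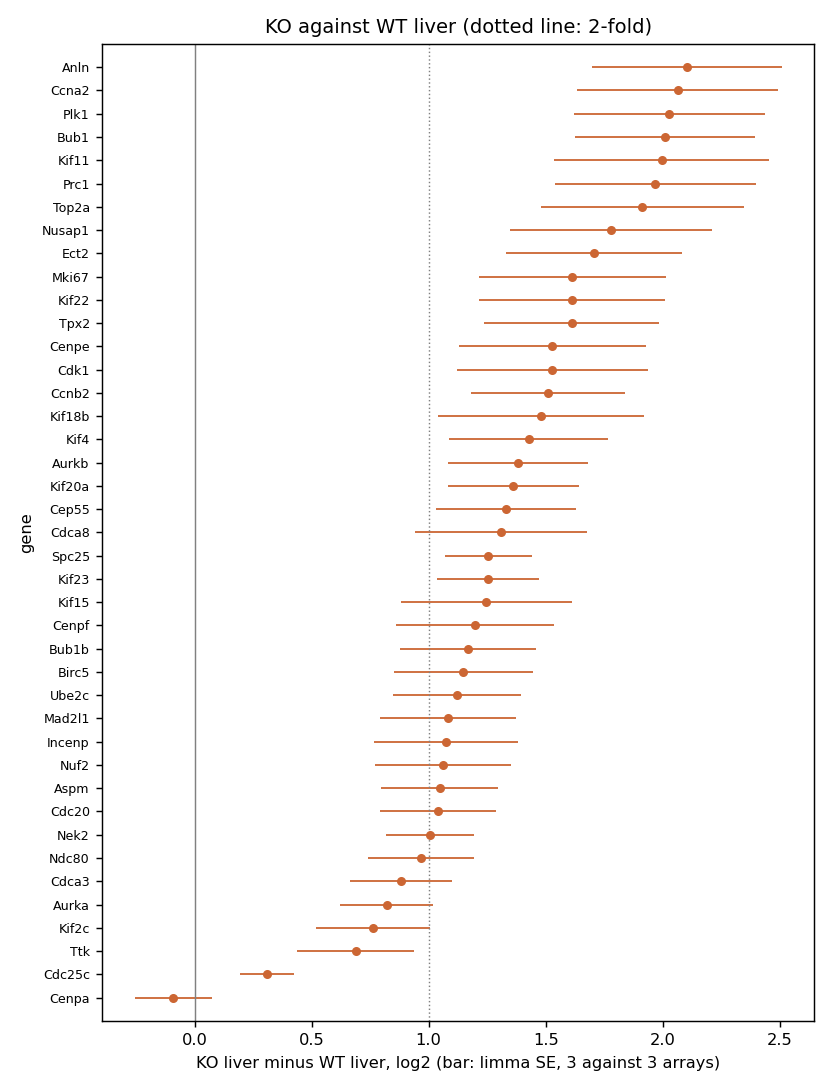
Difference of the mean log2 expression of 3 KO livers from that of 3 WT livers for each of the 41 members (horizontal axis), with limma's standard error as the bar and the genes ordered by size. 40 members lie to the right of 0, 34 at or beyond the dotted 2-fold line, and Cenpa is at -0.09.

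Markers of some other cell types also differed between the liver groups, while others did not. Levels in bulk RNA do not tell fewer cells of a type from less RNA per cell. The samples are labelled liver, but the extraction protocol also names PHH without saying what it is, and sinusoidal endothelial genes were bright (means of 12.56 to 12.71 in the WT and 12.58 to 12.80 in the KO livers over 8 genes). Whether the RNA is of whole liver or of a fraction is thus not settled by the labels. Hepatocyte markers were lowest in KO replicates 1 and 3, the livers with the highest mitosis genes, but the order was not the same throughout. Over 14 measured hepatocyte genes the mean level was 11.17, 12.18 and 12.15 in the WT livers (in replicate order). It was 9.41, 11.97 and 8.60 in the KO livers, so KO replicate 2 was near the WT livers in hepatocyte genes while its median mitosis gene stood 0.67 above the WT mean. With this mean as a covariate in limma, a setting that was not planned, the median member difference was 0.89. In that fit 40 of 41 members kept a positive difference and 0 were called. The covariate was low in KO replicates 1 and 3, so it overlaps with genotype, and their parts cannot be told apart. Bile duct genes (6 measured) were at 6.50 to 6.82 in the WT and 5.85 to 5.92 in the KO livers, and 5 of the 6 were lower in every KO array. B and plasma cell genes (6 measured) were at 6.21 to 7.47 and 6.02 to 6.11, with 3 of the 6 lower in every KO array, against 11.1% of all genes for such a separation. T and NK cell genes (10 measured) were at 6.36 to 8.81 in the WT and 6.56 to 6.78 in the KO livers. Endothelial markers were bright in all livers, at 11.49 to 11.58 in the WT and 11.53 to 11.98 in the KO livers over 10 genes, with KO replicates 1 and 3 the highest at 11.88 and 11.98. Kupffer cell genes (10 measured) and stellate cell genes (9 measured) had median differences of 0.02 and -0.10. In both lists 0 genes were separated between the liver groups. The part of these cell types in the result was not tested. Blood cell precursors can also divide in liver. The 8 measured erythroid genes had means of 6.21 to 6.86 in the WT and 6.33 to 6.57 in the KO livers. Their differences ran from -1.96 to 1.02. In every KO array 1 of the 8 was higher, against 19.2% of all genes, and 2 were lower, against 11.1%. The defining factor Gata1, 1 of the 8, was at 5.78 to 5.92 in the WT and 5.76 to 5.79 in the KO livers. Granulocyte precursor genes (9 measured) were at 5.85 to 6.36 and 5.77 to 7.14, with the highest value in KO replicate 2, the lowest of the KO livers in the mitosis genes. KO replicate 3 also differed from the other 5 livers in Y-linked genes, at a mean of 8.11 against at most 4.30, and without it the median member difference was 1.26.

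The 3 angiosarcoma lines asked a different question, how the set stands in cells cultured from tumour-bearing KO livers. They did not share a level. Line 1 was the highest of all 9 arrays in 41 of 41 members, against 17.3% of all genes. Line 2 was near the WT livers, with a median of 0.19 above the WT mean, and line 3 stood between them at 1.24, near the KO livers. The order of lines 1, 3 and 2 from high to low held for 40 members and for 13.6% of all genes, with Anln the exception. This order was noticed in these values, and it is a description of 3 single arrays with no test.

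The gap between lines was wide. Line 1 exceeded line 2 by a median of 3.23 log2 units (9.35-fold), from 1.41 for Anln to 4.44 for Bub1, against -0.06 over all genes, and 40 of 41 members differed by at least 4-fold, which was true of 1.43% of all genes. Ccna2 was at 11.39, 7.58 and 9.27 in lines 1, 2 and 3. Its value in line 2 was just above the highest WT liver. Plk1 was at 11.32, 7.50 and 9.71, and Bub1 at 10.18, 5.75 and 7.21. Both were high in line 1 and lowest in line 2, where Bub1 was close to its WT range. Kif11 was at 10.93, 6.56 and 7.89, Aurkb at 11.00, 7.54 and 9.25 and Tpx2 at 10.27, 6.88 and 7.95. Kif11 and Aurkb in line 2 were below all 3 WT livers. In all, 10 members were below every WT liver in line 2 (Aspm, Aurkb, Bub1b, Cenpa, Incenp, Kif11, Kif15, Kif23, Kif4 and Mki67), against 31.5% of all genes, and 24 were above every WT liver, against 43.7%. Set against the KO livers, line 2 was below all 3 of them for 36 members, against 28.3% of all genes. Line 1 was above all 3 KO livers for 41 members, against 37.2%, and line 3 for 8, against 47.5%.

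**Figure D3:**
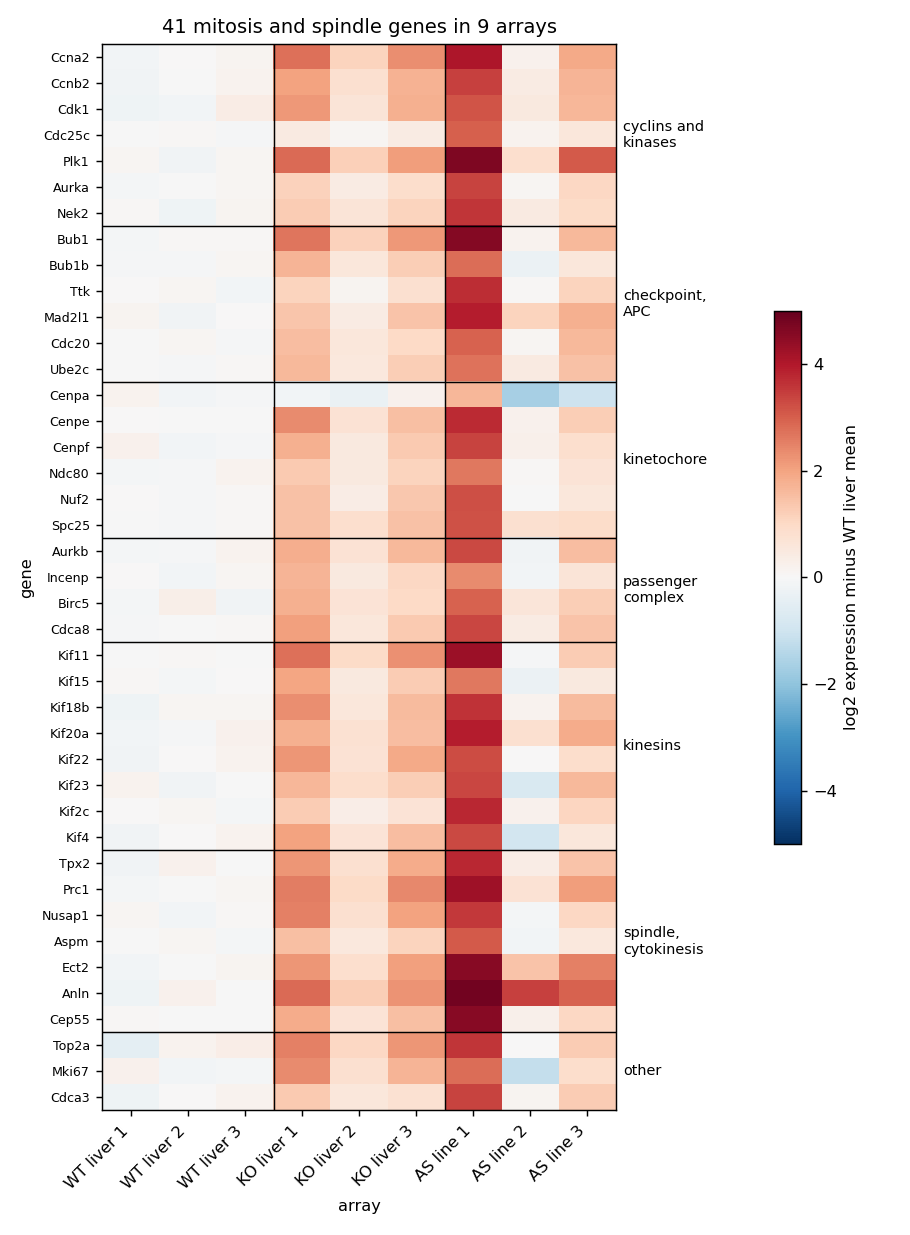
Rows are the 41 members in groups by role, columns are the 9 arrays, and colour is log2 expression minus the gene's mean in the 3 WT livers. The column of AS line 1 is red throughout, KO livers 1 and 3 are red in the rows other than Cenpa, and AS line 2 is near 0 in most rows, with Anln, Ect2 and Mad2l1 the members at least 2-fold above the WT mean.

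Against this spread, no difference of the lines from the KO livers could be called for a member. The median SD of a member over the lines was 1.68, while over all genes it was 0.19. In limma 0 of 41 members were called higher and 0 lower, against 11.4% and 10.1% of all genes, although the mean of the lines was higher for 30 of 41 members and 60.9% of all genes (median difference 0.30, and 0.05 over all genes). At an unadjusted p under 0.05, Anln was higher (19.3% of all genes) and 0 members were lower (14.6%). Anln was also the 1 member whose lines all lay above the KO livers, against 24.1% of all genes. These results do not show equal levels, since the 95% interval of a difference was wide. For Ccna2 the difference was -0.01 with an interval from -2.64 to 2.61, and for Mki67, the lowest of the set, it was -0.79 with an interval from -3.47 to 1.89. The median member difference was -0.60 without line 1 and 0.99 without line 2, and -0.09 without KO replicate 2. The sign of the median thus depended on single arrays.

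Set against the WT livers, the lines had a higher mean in 40 of 41 members and 53.3% of all genes (median difference 1.61, against 0.02 over all genes), and 24 members lay above all WT livers in every line, against 28.3% of all genes. Limma called 2 members higher, against 17.6% of all genes, and 0 lower, against 11.1%. With each array scaled to its 75th percentile the 2 members were again called, while the split of all genes turned to 2476 higher and 2884 lower, from 3506 and 2209. Without line 2 it called 16 higher, against 16.5% of all genes, and without line 1 it called 4 higher, against 17.5%, and 1 (Cenpa) lower, against 9.78%. Without line 3 it called 1 higher, against 16.1%, and without any 1 WT liver also 1, against 9.69% to 11.5%. At an adjusted p under 0.10 it called 7 higher, against 22.8% of all genes. The 2 members called with all lines were Anln and Ect2, both genes of the contractile ring and its RhoA signal. Anln was at 10.83, 9.42 and 8.93 in the lines, above all KO and WT livers in each, with a difference from the WT livers of 3.72 (SE 0.492, adjusted p = 0.00378 in limma) and from the KO livers of 1.62 (SE 0.633, adjusted p = 0.142). Ect2 was at 11.61, 8.45 and 9.55 in the lines and at 6.89, 7.04 and 7.20 in the WT livers (difference 2.83, SE 0.781, adjusted p = 0.0444). The call of Ect2 was lost when any 1 WT liver or line 3 was left out (adjusted p from 0.0901 to 0.130). In line 2, the line closest to WT, Anln, Ect2 and Mad2l1 were the 3 members at least 2-fold above the WT mean, against 13.2% of all genes. Mad2l1 was at 11.52, 8.71 and 9.38 against 7.72, 7.42 and 7.62, with a difference of 2.28 (SE 0.717, adjusted p = 0.0644).

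Other members departed from the common pattern in the lines. Mki67 was at 10.77, 6.79 and 8.88 in lines 1, 2 and 3, against 8.22, 7.87 and 7.88 in the WT and 10.35, 8.78 and 9.69 in the KO livers. In line 2 it was below every WT liver by a wide margin. Cenpa was at 10.89 in line 1 but at 7.59 and 8.20 in lines 2 and 3, both below all 6 livers. With all 3 lines limma did not call it against the WT livers (difference -0.34, adjusted p = 0.807) or the KO livers (-0.24, adjusted p = 0.887). Without line 1 limma called it lower than in the WT livers (difference -1.33, adjusted p = 0.0144) and than in the KO livers (-1.24, adjusted p = 0.0416). Line 1 had its highest value, so the calls without that line are not independent support. Cdc25c and Ttk, which differed least between the liver groups apart from Cenpa, were at 8.09 and 8.87 in line 1, and at 5.30 and 5.22 in line 2.

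**Figure D4:**
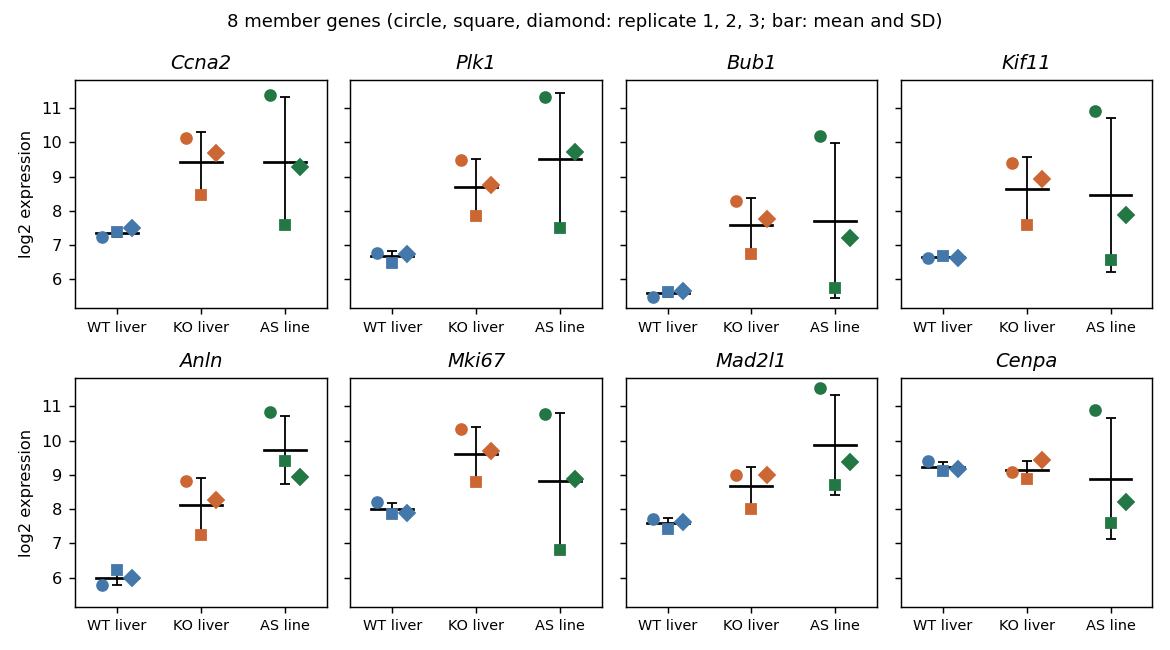
Log2 expression of 8 members in each array, by group (blue WT liver, orange KO liver, green AS line), with circle, square and diamond for replicates 1, 2 and 3 and black bars for the mean and SD (n = 3 per group). The KO square (replicate 2) is the lowest KO value in each panel, and every gene, Cenpa included, is highest in AS line 1.

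The identity of the lines was checked against markers. The lines were low in endothelial genes. All 10 endothelial and all 8 sinusoidal genes were called lower than in the KO livers in limma (against 10.1% of all genes), with mean levels of 5.99 to 6.28 and 6.23 to 6.29. Of 6 measured bile duct epithelial genes 4 were called higher than in the KO livers, against 11.4% of all genes. Among them was the keratin Krt19, at 11.82, 12.18 and 11.93 in the lines against at most 6.76 in the livers. Set against the WT livers, 5 of the 6 had a higher mean, and the lowest difference was -0.44. Of 14 measured hepatocyte genes 9 were called lower than in the WT livers, against 11.1% of all genes. The median difference of the 14 was -4.09, and 2 had a higher mean in the lines. Hepatocyte genes had a mean of 8.04, 8.86 and 7.62 in lines 1, 2 and 3, and Alb was at 12.31, 13.67 and 12.82. Line 2, the lowest of the lines in the mitosis genes, was the highest of them in these values. Whether these values come from expression, carried-over RNA or probe background was not tested, nor was their part in the level of line 2. The labels give neither passage number nor culture density of the 3 arrays, so differences of cells and of their state at harvest cannot be told apart.

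Further genes of cell division, from lists that do not include the members, were also higher in the KO livers, and are given list by list. Both these lists and the members were chosen with earlier results of these data known, so the lists are not independent support. In KO against WT livers limma called 0 genes on any of the 8 lists, as over all genes. All 35 measured genes of the other spindle and cytokinesis list had a higher KO mean, with a median difference of 0.83. The groups did not overlap, with the KO livers higher, in 28 of these 35 genes, in 16 of 19 condensin and cohesin genes and in 19 of 28 other kinetochore genes, against 19.2% of all genes. The counts were 3 of 8 for transcription factors of the mitotic programme and 4 of 13 for DREAM and NF-Y. They were 5 of 17 for the anaphase-promoting complex, 4 of 11 for kinase inhibitors and 8 of 24 for replication. Ckap2, a spindle protein, differed by 1.97 (SE 0.423), the centriole gene Stil by 1.67 and Racgap1, the partner of Ect2 and Kif23, by 1.56. All 28 other kinetochore genes were higher (median 0.60), led by Knstrn at 1.74, Cenpn at 1.33 and Ska3 at 1.28. Of 19 condensin and cohesin genes 18 were higher (median 0.94). Sgo2a, a shugoshin that protects cohesin at centromeres, differed by 2.02 (SE 0.612), and the condensin subunits Ncaph and Ncapg2 by 1.55 and 1.48. Pttg1, the gene of securin, stood at 9.73 to 9.98 in the WT and 9.61 to 10.07 in the KO livers.

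The regulators of the set differed by unequal amounts. All 8 transcription factors of the mitotic programme had a higher KO mean (median 0.66). Foxm1 was at 6.44, 7.08 and 7.14 in the WT and 8.93, 7.75 and 8.27 in the KO livers (difference 1.43, SE 0.349, adjusted p = 0.117 in limma). E2f8 had a difference of 1.10 and Lin9 one of 0.71. Foxm1 followed the members in the lines too, at 9.91, 6.34 and 8.23. The 13 genes of the DREAM complex and NF-Y had a median of 0.27, with Rbl1 at 0.95, Tfdp1 at 0.53 and E2f4 at 0.51. For 17 anaphase-promoting complex genes the median was 0.28. The inhibitor Fbxo5 differed by 1.43, Anapc2 by 0.63 and Cdc23 by 0.59. The 24 DNA replication and G1/S genes all had a higher KO mean (median 0.69), although their median in KO replicate 2 was 0.16 above the WT mean, close to the 0.15 of WT replicate 3, with Ccne2, cyclin E2, at 1.24, Mcm7 at 1.12 and Mcm6 at 0.99. The inhibitors of cyclin-dependent kinases and antiproliferative genes had a median of 0.17 over 11 genes. Cdkn2c, the gene of p18, differed by 1.13 (SE 0.214) and Ccng1 by 0.45, while Gadd45a differed by -0.49.

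In the lines, several regulators were called where no member was, in limma against the KO livers (11.4% of all genes called higher and 10.1% lower). The inhibitor Cdkn2b rose in all 3 lines, at 8.77, 8.75 and 9.26 against 6.47 to 7.06 in the KO livers (difference 2.06, SE 0.231, adjusted p = 0.00369). Ccng1 rose by 1.49 (adjusted p = 0.0126), and Cdkn1c, Btg1 and Ccng2 fell, so that 2 of the 11 genes of that list were called higher and 3 lower. Cdkn2a was at 9.82, 7.63 and 8.32 in lines 1, 2 and 3 (adjusted p = 0.150) and thus highest in the line with the highest mitosis genes. Rrm2, a subunit of ribonucleotide reductase, was the 1 replication gene of 24 called, at 11.55, 11.23 and 10.52 against 7.72 to 8.39 (difference 2.99, SE 0.320, adjusted p = 0.00317). Unlike most members, Rrm2 was high in line 2. Cks1b and Psrc1 were the 2 of 35 other spindle genes called, at 2.19 and 2.06. Zwint was the 1 of 28 kinetochore genes, and E2f3 the 1 of 8 transcription factors. E2f5, Tfdp2 and Lin37 were called higher among the 13 DREAM and NF-Y genes, Anapc11 and Anapc13 higher and Anapc7 lower among the 17 anaphase-promoting complex genes, and 0 of 19 condensin and cohesin genes were called. Against the WT livers (17.6% of all genes called higher) limma called 9 of 17 anaphase-promoting complex genes higher, 5 of 13 DREAM and NF-Y genes and 5 of 24 replication genes. It also called 5 of 28 kinetochore genes, 5 of 35 spindle genes, 1 of 8 transcription factors and 1 of 19 condensin and cohesin genes. Of the 11 kinase inhibitors and antiproliferative genes, Cdkn2b and Ccng1 were called higher and Btg1 and Btg2 lower, against 11.1% of all genes lower.

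**Figure D5:**
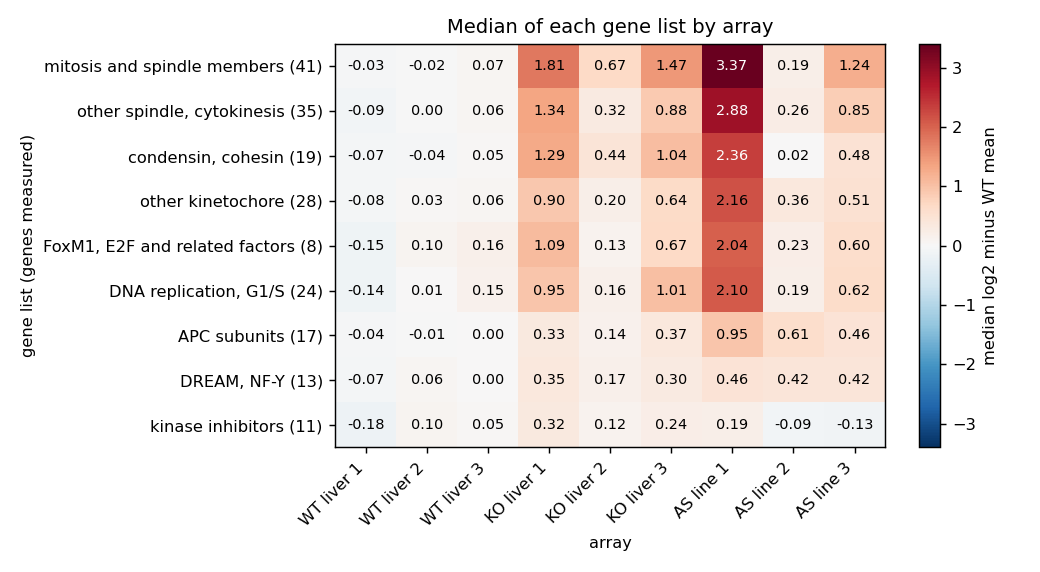
Median over each gene list of log2 expression minus the WT liver mean, by array, with the number of measured genes in brackets. The mitosis and spindle members have the highest median of the 9 lists in each KO liver and in AS lines 1 and 3, and in AS line 2 they are at 0.19.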

How the data were processed

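Total RNA (250 ng) was labelled for 9 whole-transcript arrays. The authors deposited a log2 value for each probe set, made with RMA and the oligo package per the submitters' processing notes; no source used here gives their versions or a genome build. RMA gives all arrays nearly one distribution (medians 6.53 to 6.63), so a change common to most genes would be hidden, and there are no detection calls. Of 35556 probe sets, 21789 had 1 gene in the platform annotation, 1621 several and 12146 none listed. The gene's probe set of highest mean was used, which left 19938 genes.

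Each pair of groups (3 against 3 arrays, labelled biological replicates) was fitted with limma 3.58.1 in R 4.3.3 without covariates, 2-sided, with p-values adjusted by Benjamini-Hochberg across the 19938 genes and calls made below 0.05. The p-values measure the spread between these arrays, which the labels do not tie to single animals. The procedure was also run on simulated data with known changes. There each gene varied independently, with the same spread in both groups, unlike the members here, so that run does not bear on their calls. The 3 comparisons share groups, so they are not independent. The members and lists were chosen with earlier results of these data known. Values per array were given for the first member of each role group, the 3 largest and 3 smallest KO against WT differences, and members departing from the rest; from each further list the 3 largest differences were named, and other named genes were chosen after their values were seen. Motifs were counted in RefSeq promoter windows. Alternatives were scaling, repeated quantile normalization, dim genes left out, probe set averaging, a fit of all 9 arrays, limma's trend and array weights, other thresholds, a replicate block and leaving out each array.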

Additional observations from a re-analysis of the deposited data

How the results depend on the processing

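For KO against WT livers, the median member difference ran from 1.07 to 1.66 when 1 array was left out, and 0 to 38 members were called higher, with 0 to 1949 of all genes; the member calls came without KO replicate 2. Array weights called 40 members and 5744 genes, an adjusted p under 0.10 called 2 and 366, a fit of all 9 arrays called 0 members and 2 genes, and leaving out KO replicate 2 with WT replicate 1 (added after seeing the data) called 37 and 4354. With 75th percentile scaling the all-gene median was -0.18 and the member median 1.13. Leaving out dim genes, those with a 9-array mean below the median of such means, kept 25 members, and the all-gene median was then 0.18. These means include the groups compared, so a gene could be kept through the group where it was high. Calls among the genes kept are thus not independent support. For AS lines against KO livers, the median member difference was -0.39 with array weights and ran from -0.60 to 0.99 with 1 array left out, when 0 to 1 members were called lower and 2281 to 4048 genes called; 2638 genes changed at least 2-fold. For AS lines against WT livers, members called higher were 1 with repeated quantile normalization (15.8% of all genes), 6 of the 25 kept without dim genes (30.8%), 5 in the fit of all 9 arrays (21.6%), 7 with array weights (21.3%) and 7 at an adjusted p under 0.10 (22.8%). With 1 array left out 1 to 16 were called higher and 0 to 1 lower, with 3397 to 5435 genes called, and 3492 genes changed at least 2-fold. Same-numbered arrays did not deviate together in every pair (correlations from -0.39 to 0.43 in KO against WT livers), so the replicate number was not taken as a pairing. The replicate block called 1 member (Anln) in AS lines against WT livers and 0 members in the other comparisons, with 0, 3426 and 4494 of all genes called in KO against WT, AS against KO and AS against WT. The other settings run left these counts of calls within 1.5 times and these medians within 1 SD of the replicates, and no member's called direction reversed. With 1 array left out, an arm of 2 arrays shares limma's pooled spread.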
